A study of Mus musculus with 29 samples.

Results

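The variable (V) segments of the immunoglobulin heavy (Ighv), kappa (Igkv) and lambda (Iglv) loci were followed here in RNA-seq of whole mouse liver. A gene was taken as a member when its name started with Ighv, Igkv or Iglv and its counts summed to at least 20 over the 27 mice with counts, which gave 140 of the 348 V rows among 55421 rows in the table. The members were 65 of 185 Ighv, 72 of 160 Igkv and all 3 Iglv rows. A further 69 V rows had 1 to 19 counts and 139 were at 0 in every mouse. The members held 26801 of 27221 V reads, which is 98.5%. Just inside the threshold, with 20 counts each, were Ighv5-9, Igkv2-112, Igkv12-38, Ighv5-9-1, Ighv12-3, Ighv1-36 and Ighv5-12, and just outside, with 19, were Ighv1-47 and Ighv1-58. The members were thus chosen by their summed counts in these same mice. Since the threshold was applied to the total over all mice, and most of that total came from old mice, the levels below are given as a description and the sums over members carry no test.

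An antibody is made of heavy and light chains. In each developing B cell, 1 of the V segments at a locus is joined to a short J segment by DNA recombination. At the heavy locus, but not at the kappa and lambda loci, a short D segment is joined between them. The exon that results is transcribed together with a constant region such as Ighm or Igkc. Descendants of that cell carry the same V segment, and plasma cells, which secrete antibody, contain far more of this RNA than resting B cells. Liver is mainly hepatocytes, but it also holds resident and circulating B cells and plasma cells. In bulk tissue, more cells of a type and more RNA per cell cannot be told apart.

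The young vehicle groups were C57BL6/N mice of 5 months, with 5 females and 4 males in the count table. The old vehicle groups, with 4 mice of each sex, and the old HDM201 groups, with 5 of each sex, were C57BL/6J mice of 20 months (females) or 24 months (males). HDM201 inhibits MDM2 and so activates p53. Mice received 10 mg/kg of it each day by gavage over 14 days, or vehicle. These ages are those of the labels, and the study's methods give ages 1 month apart from them for young mice and old females. No young mice were given HDM201. P-values over these mice measure the spread between single livers. Age and substrain cannot be told apart in these groups, nor can sex and the age of the old mice.

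Total counts ran from 16485900 to 23570458 per mouse. V reads were a small part of them, with 27 to 115 in each of the 9 young mice and 309 to 5004 in each of the 18 old ones. Young vehicle male 5 and old vehicle male 1 had FPKM values (Cufflinks fragment counts scaled to gene length and library size) but were not among the mice with counts. Both stood apart. The summed FPKM of the members was 477 in young vehicle male 5, against 12.4 to 42.0 in the other young males, and 1181 in old vehicle male 1, against 197 to 447 in the other old vehicle males. The male comparisons of counts below were made without these 2 mice, and the summed V segment level is also given with them on the FPKM scale. The labelled tissue held its defining genes, since the 7 hepatocyte genes listed summed to between 77487 and 159479 CPM (counts scaled to the effective library size) in every mouse.

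The last 300 bases of the V exons of 8 segments (or the whole exon where it is shorter) are shown because the results turn on them, from the GENCODE M21 transcripts of GRCm38. Igkv3-2, Igkv5-39, Ighv1-53 and Iglv1 were abundant in many old mice, Igkv1-117 and Ighv8-8 were the 2 most abundant in the old male with most V reads, and Ighv11-2 and Igkv14-126 are segments known from B-1 cells, which make natural antibodies. Capitals mark the germline bases after the last tyrosine, any residue, cysteine run, where the third complementarity determining region starts.
Igkv3-2 (chr6:70698768-70699067, plus strand): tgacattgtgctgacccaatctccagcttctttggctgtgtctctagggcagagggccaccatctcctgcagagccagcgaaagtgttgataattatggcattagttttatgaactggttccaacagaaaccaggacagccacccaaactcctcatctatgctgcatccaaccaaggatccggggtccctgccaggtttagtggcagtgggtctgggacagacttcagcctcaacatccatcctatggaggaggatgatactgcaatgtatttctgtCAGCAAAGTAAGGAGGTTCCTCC
Igkv5-39 (chr6:69900424-69900721, minus strand): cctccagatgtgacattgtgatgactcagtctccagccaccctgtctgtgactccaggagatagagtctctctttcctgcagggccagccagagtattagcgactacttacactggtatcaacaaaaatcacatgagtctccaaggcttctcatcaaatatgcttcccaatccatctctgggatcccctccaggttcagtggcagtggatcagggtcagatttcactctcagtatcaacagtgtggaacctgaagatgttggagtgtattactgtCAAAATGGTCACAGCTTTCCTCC
Ighv1-53 (chr12:115158403-115158702, minus strand): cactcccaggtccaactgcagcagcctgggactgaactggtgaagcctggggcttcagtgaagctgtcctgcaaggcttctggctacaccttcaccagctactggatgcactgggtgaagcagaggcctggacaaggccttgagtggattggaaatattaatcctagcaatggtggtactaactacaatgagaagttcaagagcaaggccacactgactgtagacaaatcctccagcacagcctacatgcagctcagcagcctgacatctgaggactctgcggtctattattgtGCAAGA
Iglv1 (chr16:19085017-19085316, minus strand): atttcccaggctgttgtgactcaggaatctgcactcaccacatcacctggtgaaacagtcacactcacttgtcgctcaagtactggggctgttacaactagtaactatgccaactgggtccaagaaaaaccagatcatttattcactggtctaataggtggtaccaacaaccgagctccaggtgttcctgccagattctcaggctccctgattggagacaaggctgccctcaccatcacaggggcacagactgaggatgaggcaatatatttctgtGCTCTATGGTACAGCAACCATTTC
Igkv1-117 (chr6:68121528-68121827, plus strand): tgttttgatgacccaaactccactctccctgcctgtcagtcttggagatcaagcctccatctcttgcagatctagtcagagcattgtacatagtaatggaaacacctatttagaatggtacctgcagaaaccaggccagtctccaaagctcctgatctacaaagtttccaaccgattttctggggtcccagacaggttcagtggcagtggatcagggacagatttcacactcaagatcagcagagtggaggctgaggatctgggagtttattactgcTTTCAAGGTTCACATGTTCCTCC
Ighv8-8 (chr12:115294062-115294361, minus strand): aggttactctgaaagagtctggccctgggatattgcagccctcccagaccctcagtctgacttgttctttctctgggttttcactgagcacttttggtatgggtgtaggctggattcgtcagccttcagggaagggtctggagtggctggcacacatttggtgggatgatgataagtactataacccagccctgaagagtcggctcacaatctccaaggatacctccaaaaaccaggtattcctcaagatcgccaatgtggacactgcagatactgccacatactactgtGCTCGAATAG
Ighv11-2 (chr12:114048241-114048540, minus strand): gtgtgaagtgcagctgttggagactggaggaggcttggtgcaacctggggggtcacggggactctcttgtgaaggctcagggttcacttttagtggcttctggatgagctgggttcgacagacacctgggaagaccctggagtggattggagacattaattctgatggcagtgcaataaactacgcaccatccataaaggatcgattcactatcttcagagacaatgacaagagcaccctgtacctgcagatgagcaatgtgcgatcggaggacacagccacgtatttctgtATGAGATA
Igkv14-126 (chr6:67896345-67896642, plus strand): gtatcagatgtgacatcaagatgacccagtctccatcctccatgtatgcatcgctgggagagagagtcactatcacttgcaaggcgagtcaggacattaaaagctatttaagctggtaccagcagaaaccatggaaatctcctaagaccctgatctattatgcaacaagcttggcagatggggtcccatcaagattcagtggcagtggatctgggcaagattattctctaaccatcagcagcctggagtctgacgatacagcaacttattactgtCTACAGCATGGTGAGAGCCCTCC
Over the whole exons, identity was 67.8% between Igkv3-2 and Igkv5-39 and 57.7% between Ighv1-53 and Ighv8-8. Among the 139 members with a V exon in that annotation, the median identity to the nearest other V segment was 95.4%, and 13 members had a segment of 98% identity or more. Ighv1-62-2 and Ighv1-71 were 100% identical over the V exon, so that reads wholly inside it cannot be divided between them. Their counts still differed, with 1 and 42 in old vehicle female 1 and 33 and 10 in old HDM201 female 3. Counts of such members are uncertain. Counts per segment do not identify clones, since the joined J bases, and the D bases of heavy chains, were not part of the data.

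The first question was how much V segment RNA the livers held at each age. It was higher in every old vehicle mouse than in every young vehicle mouse with counts, in both sexes. Summed V segment CPM was 3.56, 4.06, 4.73, 5.45 and 3.19 in young vehicle females and 61.1, 75.9, 71.1 and 59.6 in old vehicle females. In males it was 1.62, 6.53, 2.82 and 3.95 in young vehicle mice and 64.0, 29.8, 41.1 and 43.3 in old vehicle mice. The means were 4.20 ± 0.907 (SD, n = 5) and 66.9 ± 7.88 (SD, n = 4) CPM in females, a ratio of 16.2 from the mean log2 values. They were 3.73 ± 2.09 (SD, n = 4) and 44.5 ± 14.2 (SD, n = 4) CPM in males, a ratio of 13. On the FPKM scale with all 29 mice, young vehicle male 5 at 477 was inside the range of the old vehicle males, 197 to 1181, so that the male groups overlapped. The male log2 difference in FPKM was 3.11 with all mice and 3.57 over the mice with counts.

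**Figure D1:**
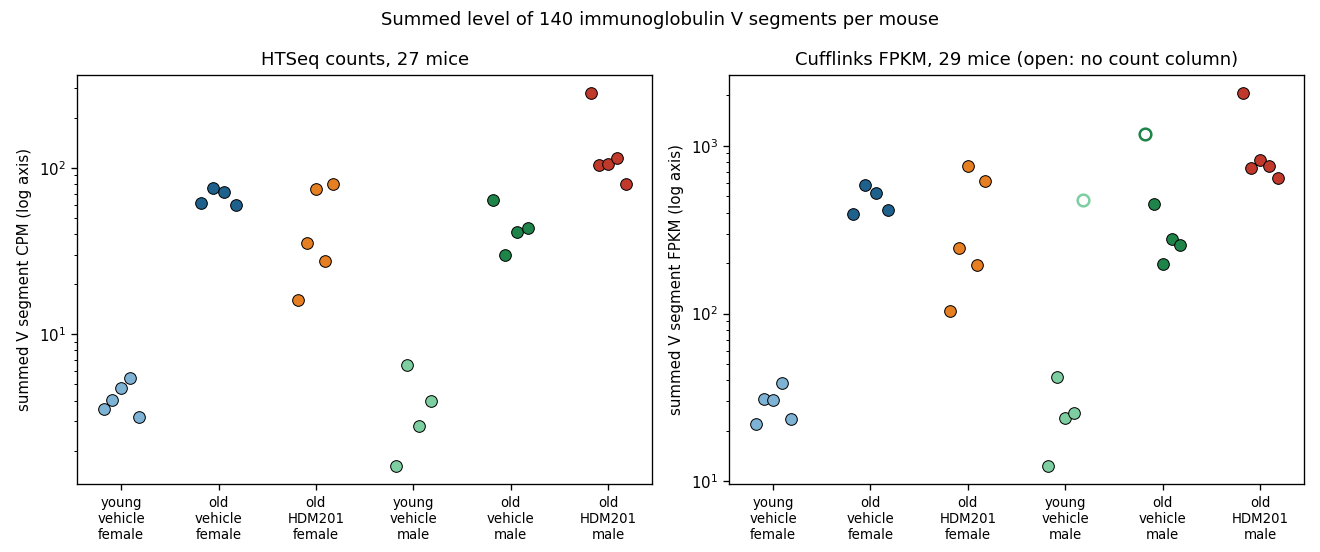
Summed level of the 140 V segments in each mouse, by group, on log axes, with TMM-scaled CPM from counts on the left (27 mice) and FPKM on the right (29 mice, open points for the 2 mice without counts); each point is 1 mouse. Old mice with counts are at 16.1 CPM or more and young mice at 6.53 CPM or less, while the open points of young vehicle male 5 (477 FPKM) and old vehicle male 1 (1181 FPKM) lie above the other mice of their groups.

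All 3 loci were higher in old mice. On the log2 scale the old minus young difference in summed CPM was 3.97 for Ighv, 4.15 for Igkv and 3.09 for Iglv in females, and 3.26, 4.03 and 2.98 in males. Lambda segments made up 2.33% to 20.0% of light chain V reads in young mice and 1.98% to 16.4% in old ones, so that these ranges overlapped. The share of V reads on Ighv was 33.3% to 50.0% in young males and 25.7% to 32.8% in old vehicle males. These did not overlap, but the 33.3% rested on 9 of 27 V reads in young vehicle male 1. In females the share was 23.2% to 42.1% and 27.3% to 34.4%.

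Few segments had enough counts to be tested one by one. After the usual filter on low counts, 7 members entered the female comparison, and all 7 were called higher in old mice by edgeR's quasi-likelihood test with a false discovery rate (FDR) under 0.05, where 16.8% of the 14233 genes tested were called higher. In males 4 members entered and all 4 were called higher, where 2.76% of 13755 genes were. These members passed the filter through the old mice, where they are high, so the counts are no support of their own. The same groups did not overlap for 7 of 7 and 4 of 4 members, where 12.5% and 7.33% of genes had old mice all above young mice. Without the filter, 81 of 138 members were called higher in females and 18 of 135 in males, beside 8.92% and 2.77% of all genes, and 0 were called lower, beside 7.54% and 0.783%. In the edgeR fit without the filter the log2 fold change was above 0 for 131 of 138 members in females, with a median of 3.47 against 0.04 for all genes, and for 131 of 135 in males, with a median of 2.81 against 0.03. DESeq2 called 58 of 79 members higher in females and 21 of 47 in males, beside 13.3% and 5.42% of its genes. Members were chosen by totals that came mostly from old mice, so these further counts are no support of their own either.

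Igkv5-39 is a kappa segment on chromosome 6. It had 3, 1, 1, 2 and 1 counts in young vehicle females and 162, 150, 54 and 104 in old vehicle females. Every old vehicle female was above every young one, and the log2 fold change was 5.98 ± 0.431 (SE) with an FDR of 4.8e-06 in edgeR. In males it had 0, 1, 1 and 0 counts in young and 56, 26, 29 and 41 in old vehicle mice, a log2 fold change of 5.96 ± 0.560 (SE) with an FDR of 0.00115 in edgeR.

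Igkv3-2, a kappa segment of another family, had 1 count over the 5 young vehicle females and 97, 74, 39 and 62 counts in the old vehicle females. Its log2 fold change was 7.62 ± 0.553 (SE) and its FDR in edgeR 4.8e-06. In males it had 0, 0, 2 and 0 counts in young and 89, 53, 10 and 33 in old vehicle mice. The ratio of summed CPM there was 95.0 with an exact 95% interval of 25.9 to 791, which covers counting error only, and the edgeR FDR was 0.00986.

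Ighv1-53, a heavy chain segment of the large Ighv1 family, had 2, 1, 0, 0 and 1 counts in young vehicle females and 150, 16, 25 and 25 in old vehicle females. The old mice were all above the young ones, with old vehicle female 1 far above the other 3, and the log2 fold change was 5.81 ± 0.994 (SE) with an edgeR FDR of 0.00111. In males it had 1 count in all young mice together and 19, 18, 14 and 99 in old vehicle mice, a log2 fold change of 6.66 ± 1.11 (SE) with an edgeR FDR of 0.0146. That male call was lost without young vehicle male 3 (FDR 0.0709 in edgeR) or without young vehicle male 4 (FDR 0.0532 in edgeR).

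Iglv1, the main lambda segment, had the smallest rise of the segments called. It had 0, 1, 8, 11 and 1 counts in young vehicle females and 16, 76, 14 and 22 in old vehicle females, a log2 fold change of 2.74 ± 0.71 (SE) with an edgeR FDR of 0.0111. In males it had 2, 3, 0 and 2 counts in young and 26, 16, 26 and 12 in old vehicle mice, a log2 fold change of 3.47 ± 0.553 (SE) with an edgeR FDR of 0.0120. It was also the lambda segment with most reads, with 712 of the 872 Iglv reads over all mice, beside 82 for Iglv3 and 78 for Iglv2.

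The other members called in females were Igkv6-20, Igkv4-55 and Ighv1-26, with log2 fold changes of 6.91, 6.89 and 4.41. Igkv4-55 had 2 counts over the young vehicle females and 132, 31, 48 and 48 in the old ones. In males, where it was not tested, it had 0 counts in the 4 young mice and 17, 9, 35 and 2 in the old vehicle mice, at least 21.6-fold higher against a floor of 3 counts over the young group. No member differed between the sexes in its change with age in edgeR, where 12 entered and 0 were called beside 1.9% of genes called higher and 2.02% lower. Of those 12, 1 had an unadjusted p under 0.05 (Igkv6-20, lower in males), and DESeq2 also called 0, beside 5.04% of its genes higher and 4.33% lower.

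Other genes of the B cell lineage moved with age as well. Of 13 constant region genes, 8 were tested in females and 7 were higher, and 9 were tested in males and 6 were higher. Igkc, the kappa constant region, had a log2 fold change of 3.81 ± 0.157 (SE) in females and 4.38 ± 0.415 (SE) in males, with edgeR FDRs of 7.4e-08 and 0.00115. Jchain, the joining chain of secreted IgM and IgA, rose by 3.13 ± 0.199 (SE) on the log2 scale in females and 2.77 ± 0.285 (SE) in males, with edgeR FDRs of 2.5e-06 and 0.00177. Of 14 plasma cell genes, 8 of the 12 tested were higher in females and 2 of the 8 tested in males. Over all genes, 16.8% were called higher in females and 2.76% in males. The plasma cell list summed to 553 to 602 CPM in young vehicle females, where Jchain was at 0.918 to 1.87 CPM. Most of its RNA there thus came from other genes of the list, and the part of other liver cells in it was not tested. Its median log2 fold change with age in males was 0.17.

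Of 19 genes that mark B cells, 13 of 15 tested were higher in females and 10 of 14 in males, and none was lower. The share of all genes called higher was 16.8% in females and 2.76% in males. The signalling partner Cd79a of the B cell receptor rose by 2.35 ± 0.351 (SE) and 2.15 ± 0.264 (SE) on the log2 scale, with edgeR FDRs of 0.000511 and 0.00379. Summed over the list, B cell genes were at 13.3 to 18.7 CPM in young and 41.2 to 69.4 CPM in old vehicle females, and at 8.85 to 13.5 and 32.3 to 51.3 CPM in males. Blnk, a B cell adaptor protein, was called in males with a log2 fold change of 3.77, and its change with age differed between the sexes by 3.02 ± 0.410 (SE) on the log2 scale with an edgeR FDR of 0.00139. Of 7 genes listed for recombination (Rag1, Rag2 and Dntt) or for developing B cells (Vpreb1, Vpreb2, Vpreb3 and Igll1), 2 were tested in each sex. EdgeR called 0 of them. Rag1 had 1 count in old vehicle female 3, Rag2 had 2 in old vehicle female 4, and both had 0 in all other mice. Whether Rag1 and Rag2 changed with age therefore cannot be said.

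Some markers of other cells rose too, beside 16.8% of all genes called higher in females and 2.76% in males. Of 7 myeloid genes, 7 of 7 were higher with age in females, at 175 to 272 CPM in young and 291 to 613 CPM in old vehicle mice when summed, and 2 of 7 in males, at 81.9 to 166 and 127 to 365 CPM. Of 11 T cell genes, 2 of 8 tested were higher in females and 1 of 5 in males, with sums of at most 6.68 CPM in young and 14.7 CPM in old vehicle mice. With so few genes, the female T cell count is near the share over all genes. Hepatocyte genes had 2 of 7 lower in females (Cps1 and Cyp3a11), beside 2138 of all 14233 genes, and 0 called in males by edgeR. The part of these cells in the V segment levels was not tested.

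The next question was whether HDM201 moved the V segments of old mice. In males, every HDM201 mouse with counts was above every vehicle mouse, at 279, 104, 106, 114 and 80.3 summed CPM against 64.0, 29.8, 41.1 and 43.3. The means were 137 ± 80.7 (SD, n = 5) and 44.5 ± 14.2 (SD, n = 4) CPM, a ratio of 2.86 from the mean log2 values. On the FPKM scale with all 29 mice the groups overlapped, since old vehicle male 1 at 1181 was above 4 of the 5 HDM201 males, which had 644 to 822, and below old HDM201 male 1 at 2052. The log2 difference was 1.69 in FPKM over the mice with counts and 1.27 with old vehicle male 1.

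In females the HDM201 mice spread over a wide range. They had 16.1, 35.3, 74.5, 27.5 and 79.9 summed CPM, against 61.1, 75.9, 71.1 and 59.6 in the vehicle females. The groups overlapped, with 3 HDM201 mice below and 1 above all vehicle mice. The means were 46.7 ± 28.8 (SD, n = 5) and 66.9 ± 7.88 (SD, n = 4) CPM, a ratio of 0.589 from the mean log2 values.

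With HDM201, edgeR with its filter called no single segment, while other fits called some. In males 28 members were tested and edgeR called 0, beside 0.0% of 14109 genes called higher and 0.00709% lower, and DESeq2 called 7 of 30 higher, beside 0.425% of its 13879 genes. At an unadjusted p under 0.05 in edgeR, 15 of the 28 were higher and 0 lower, where 12.1% of all genes passed that p in either direction. Without the filter, edgeR called only Ighv1-55 among 140 members (FDR 0.0498), beside 0.025% of genes called higher. In that fit 116 of 140 members had a log2 fold change above 0, with a median of 1.26 against 0.02 for all genes. In the male age comparison, which holds no HDM201 males, 4 members passed the filter. Most of the 28 thus passed only with HDM201 males, where they are high, in the comparison. HDM201 males also held 12366 of the 26801 reads by which members were chosen, so these counts are no support of their own.

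All HDM201 males were above all vehicle males with counts for 5 of the 28 members tested, where this held for 1.54% of genes. For 4 of the 5, each vehicle male had at most 8 counts, under the filter's minimum of 10, so that they were tested only because they are high in HDM201 males, and the count is no support of its own. Ighv1-55, an Ighv1 segment and one of the members with most heavy chain reads, was at 0.773 to 4.97 CPM in HDM201 males and 0 to 0.366 CPM in vehicle males. Its log2 fold change was 3.64 ± 0.762 (SE) with an FDR of 0.196 in edgeR. The others were Igkv17-127, Igkv6-15, Igkv8-24 and Igkv1-110, all kappa segments, with log2 fold changes of 2.09, 2.13, 4.09 and 1.76 and edgeR FDRs of 0.196 to 0.297.

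In females 20 members were tested and edgeR called 0, and DESeq2 also called 0. At an unadjusted p under 0.05 in edgeR, 3 of the 20 had lower values and 0 higher, where 22.5% of all genes passed that p in either direction, so that the members did not exceed the background. In edgeR 2.35% of 14445 genes were called higher and 2.9% lower, and in DESeq2 4.51% and 4.77%. Those 3 were Igkv4-55, Ighv1-53 and Ighv1-64, with log2 fold changes of -1.77, -1.66 and -1.43 and edgeR FDRs of 0.112 to 0.197. Without the filter edgeR called 5 of 138 lower (Ighv1-12, Ighv1-19, Igkv4-55, Igkv4-57 and Igkv5-43), beside 1.97% of genes called lower, and 96 of 138 members had a log2 fold change below 0, with a median of -0.57 against -0.01 for all genes. No tested member had HDM201 females all above or all below vehicle females, where 5.31% and 4.63% of genes did.

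The difference between the sexes in the response to HDM201 was tested member by member. Of 48 tested, edgeR called 0, beside 0.0334% of genes called more positive in males and 0.0735% less. At an unadjusted p under 0.05, 20 of the 48 were more positive in males and 0 less, where 18.5% of all genes passed that p in either direction. HDM201 males held 12366 of the 26801 reads by which members were chosen, so this count is no support of its own. DESeq2 called 2 (Igkv8-24 and Ighv1-55), beside 2.16% of its genes, and edgeR without the filter 4 (Igkv17-127, Igkv17-121, Ighv1-19 and Ighv1-55), beside 0.191%. The edgeR count rose from 0 to 2 when old vehicle female 3, old HDM201 male 2 or old HDM201 male 4 was left out, while calls over all genes went from 16 to 314, 123 and 288. The segment with the lowest FDR was Igkv17-127, at a male minus female log2 difference of 3.34 ± 0.769 (SE) and 0.0607 in edgeR.

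Other B cell genes changed with HDM201 in females. Cd79b, Cd37, Cd72 and Bank1 were lower, 4 of 17 B cell genes tested, with log2 fold changes of -1.08, -1.01, -1.24 and -0.79 and edgeR FDRs of 0.00688 to 0.0317. Over all genes, 2.9% were called lower in females. The summed list was at 25.1 to 35.5 CPM in HDM201 females and 41.2 to 69.4 CPM in vehicle females, without overlap. In males 0 of 16 B cell genes were called by edgeR, with 34.1 to 64.5 and 32.3 to 51.3 CPM. Only 1 of all 14109 genes was called there, so that a count of 0 says little. Cd37, a B cell membrane protein, differed between the sexes in its response by 1.43 ± 0.271 (SE) on the log2 scale with an edgeR FDR of 0.0462.

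The constant regions had 0 of 9 genes called by edgeR in females, beside 2.35% of all genes called higher and 2.9% lower. In males 0 of 10 were called, beside 1 of all 14109 genes. Igkc in males had a log2 fold change of 1.40 ± 0.294 (SE) and Jchain 1.52 ± 0.335 (SE), each with an FDR of 0.196 in edgeR. Of 7 myeloid genes 6 were lower with HDM201 in females, beside 2.9% of all genes, at 192 to 301 CPM summed. In males 0 of them were called, beside the same 1 of 14109 genes. Fcgr1, Fcgr3 and Fcgr4, receptors that bind antibody on myeloid cells, were lower in females, with log2 fold changes of -1.22, -0.57 and -1.66 and edgeR FDRs of 0.00987 to 0.0430. Erythroid genes, of which edgeR called 0 of 5 in either sex, summed to 286 to 1139 CPM in old vehicle males and 101 to 205 CPM in HDM201 males. In females they summed to 164.3 to 252.4 CPM with vehicle and 17.5 to 164.5 CPM with HDM201. The part of these cells in the V segment levels was not tested.

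More segments were seen in old mice, which also had more V reads. In young mice 17 to 51 members were seen per mouse, and in old mice 71 to 132. Over a whole group, 102 members were seen in young vehicle females, 84 in young vehicle males, 135 in each old vehicle group, 136 in HDM201 females and 140 in HDM201 males. No member was seen in all 27 mice, 25 were seen in all 18 old mice, and 20 in no young mouse. With so few V reads in young livers, a segment at 0 there was not detectable at this depth.

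At an equal number of V reads the groups overlapped. Drawing 27 V reads, the number in the shallowest mouse, gave an expected 18.9 to 21.2 segments in young vehicle females and 15.7 to 19.5 in old vehicle females. In males it gave 17 to 21.4 and 12.8 to 20.4. The means were 20.0 ± 0.838 (SD, n = 5) and 17.8 ± 1.58 (SD, n = 4) in females, and 19.3 ± 2.38 (SD, n = 4) and 18.1 ± 3.57 (SD, n = 4) in males. The male difference of -1.14 became 0.64 without old vehicle male 5. With HDM201 the means were 16.7 ± 1.56 (SD, n = 5) in females and 17.3 ± 3.83 (SD, n = 5) in males, both overlapping vehicle, and the male difference of -0.84 became 0.60 without old HDM201 male 1.

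Pielou evenness, which is 1 when all segments seen are equally abundant, was 0.928 to 0.964 in young mice. It was 0.750 to 0.841 in old vehicle females and 0.634 to 0.884 in old vehicle males, below all young mice of their sex. This measure depends on the number of reads, which also differed without overlap. The chance that 2 V reads share a segment has no such bias. It was 1.97% to 3.38% in young and 3.12% to 6.51% in old vehicle females, and 1.92% to 5.41% and 2.72% to 17.1% in males, so that both pairs of groups overlapped. In HDM201 mice evenness was 0.675 to 0.826 in females and 0.564 to 0.865 in males, and the chance of a shared segment was 5.55% to 10.5% and 2.53% to 14.9%, both overlapping vehicle.

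**Figure D2:**
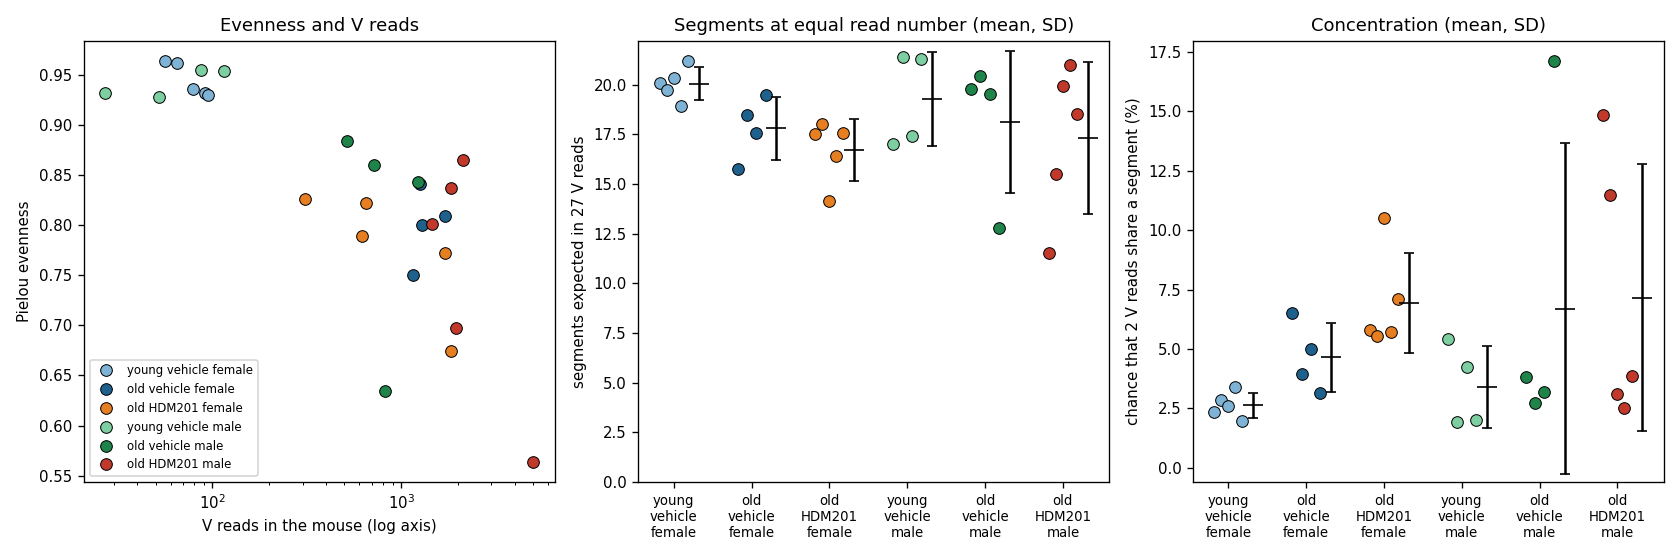
Left, Pielou evenness of each mouse against its number of V reads on a log axis; middle, segments expected in 27 V reads; right, the chance in percent that 2 V reads share a segment; points are mice and the bars beside them are the group mean ± SD. Evenness is at least 0.928 in the 9 young mice and at most 0.884 in the 18 old ones, whereas the other measures overlap between young and old, with old vehicle male 5 (17.1%) and old HDM201 male 1 (14.9%) highest on the right.

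What differed between old mice was which segments led. By read counts, a kappa segment was the most abundant V segment in all 18 old mice with counts. Igkv5-39 led in 5 of them, Igkv3-2 in 4 and Igkv1-117 in 3, so that 8 different segments led over the 18 mice. In 15 of them the leading segment took over 10% of V reads. The leader depended on the measure, since on the FPKM scale a heavy segment led in some of these mice. These were old vehicle female 1 (Ighv1-53, 12.5%), old HDM201 female 3 (Ighv13-2, 31.8%) and old HDM201 female 5 (Ighv2-9-1, 13.1%). Igkv5-39 led on that scale only in old HDM201 female 2.

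In old vehicle mice the leading share ran from 8.22% (Igkv5-39 in female 4) to 38.4% (Igkv4-63 in male 5). The 38.4% rested on 313 of 816 V reads, with a Wilson 95% interval of 35.1% to 41.7%, where intervals cover counting error only and reads of a segment are not independent molecules. In HDM201 females it ran from 12.8% (Igkv1-117 in female 4) to 25.7% (Igkv4-57-1 in female 3), and in HDM201 males from 10.5% (Igkv5-39 in male 4) to 33.1% (Igkv1-117 in male 1). Vehicle and HDM201 mice overlapped in both sexes.

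**Figure D3:**
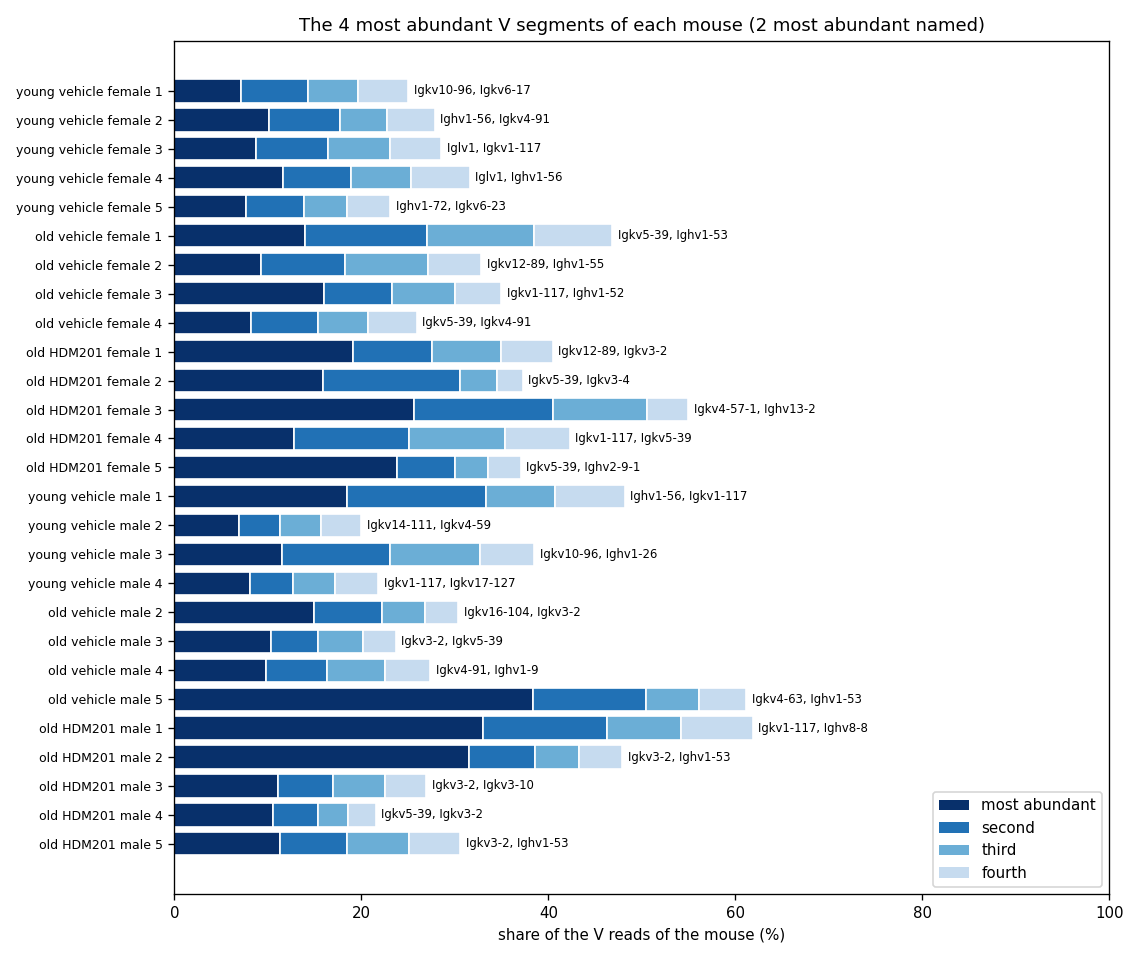
Share of the V reads of each mouse, in percent, taken by its 4 most abundant segments, from dark to light, with the 2 most abundant named beside each bar. The longest dark bars are 38.4% (Igkv4-63) in old vehicle male 5, 33.1% (Igkv1-117) in old HDM201 male 1 and 31.5% (Igkv3-2) in old HDM201 male 2; young mice rest on 27 to 115 V reads each.

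Many segments belonged mainly to 1 mouse. For 21 members a single mouse held over 50% of all counts, and 13 of these had over 100 counts in that mouse. Old HDM201 male 1 held 7 of the 13. It had 1654 of 2341 counts of Igkv1-117, 662 of 759 of Ighv8-8, 397 of 639 of Igkv3-5, 382 of 439 of Igkv6-25, 298 of 351 of Ighv1-61, 205 of 328 of Ighv1-76 and 181 of 259 of Ighv1-15. The segments that led elsewhere were few there, with 11 counts each of Igkv3-2 and Igkv5-39 and 3 of Ighv1-53 among its 5004 V reads.

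A heavy and a kappa segment were high together in the same mouse in several cases. Old HDM201 female 3 had 469 of 642 counts of Igkv4-57-1 and 271 of 289 of Ighv13-2, and 9 mice in all had any Ighv13-2. Old HDM201 female 5 had 404 counts of Igkv5-39 and 105 of 191 of Ighv2-9-1. Old vehicle male 5 had 313 of 530 counts of Igkv4-63 and 99 of Ighv1-53, and old HDM201 male 2 had 612 of 1731 of Igkv3-2 and 137 of 840 of Ighv1-53. The data do not say whether such a pair came from the same cells.

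In 2 further mice a single kappa segment was the most abundant and held mainly there. Old vehicle male 2 had 183 of 250 counts of Igkv16-104, and old vehicle female 2 had 158 of 285 of Igkv12-89, with 152 counts of the heavy segment Ighv1-55 close behind. Igkv12-89 also led in old HDM201 female 1, with 59 of its 309 V reads (19.1%, Wilson 95% interval 15.1% to 23.8%).

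**Figure D4:**
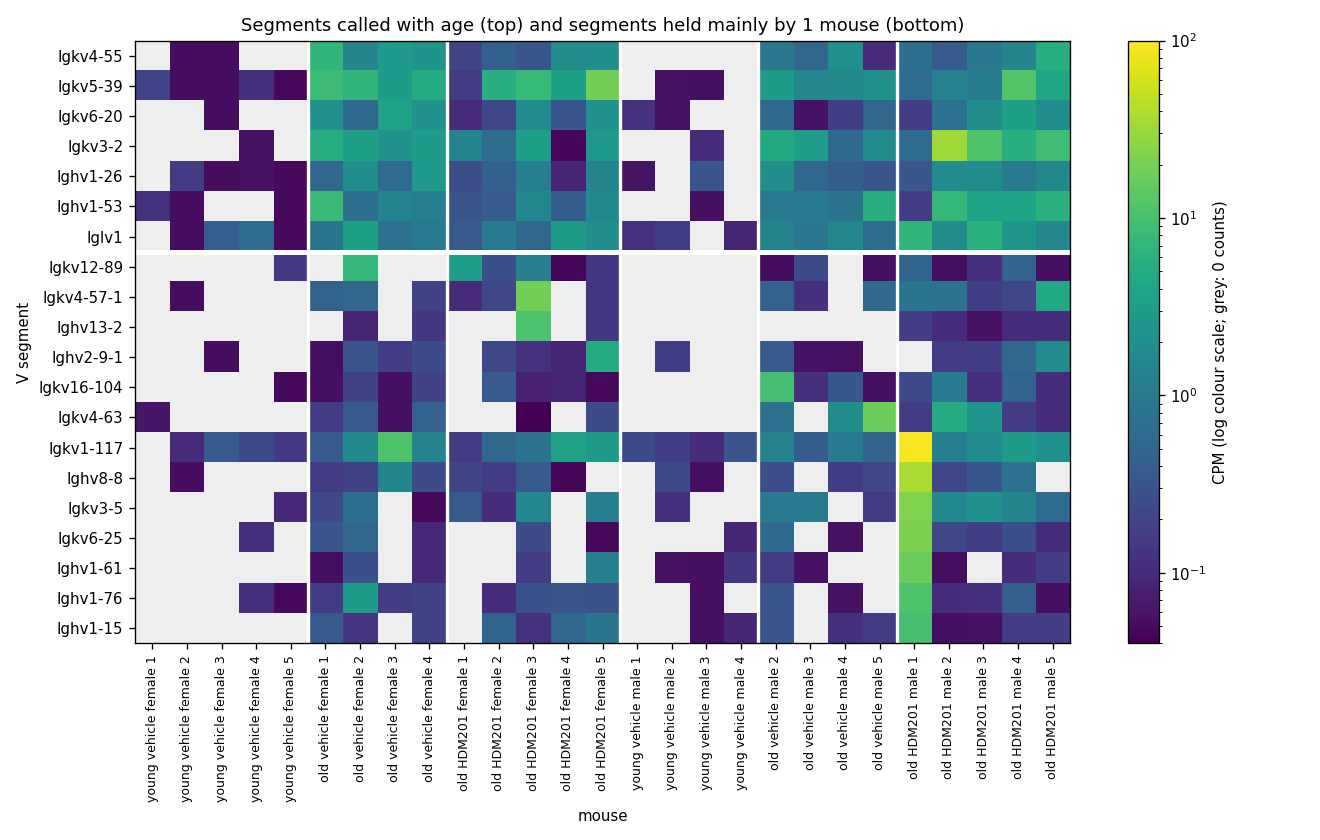
CPM of single V segments in each of the 27 mice on a log colour scale, with grey for 0 counts; above the line are the 7 segments called higher with age by edgeR, below it the 13 segments of which 1 mouse held over 50% of the total and over 100 counts. The upper segments have counts in all 18 old mice, and each lower segment is brightest in 1 mouse, 7 of them in old HDM201 male 1.

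The composition of V reads was compared between mice by the Morisita index, which is near 1 for the same composition and 0 for no shared segment. Over the 121 pairs of old mice from different groups its median was 0.370, with a range of 0.0398 to 0.791. Within groups the medians were 0.448 in old vehicle females, 0.297 in old vehicle males, 0.248 in HDM201 females and 0.470 in HDM201 males, all inside that range. The lowest pair was old vehicle male 5 with old HDM201 male 1, and the highest old vehicle male 3 with old HDM201 male 3. Young mice gave medians of 0.537 in females and 0.510 in males. Pairs share mice, so these values are a description.

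By family, Ighv1 held 64.2% of Ighv reads over all mice, in 37 of the 65 heavy members. Among Igkv reads, Igkv4 held 17.9% (18 members), Igkv3 17.6% (7), Igkv1 17.2% (6) and Igkv5 12% (3). The Ighv1 share was 42.3% to 65.4% in young and 63.5% to 79.9% in old vehicle females, which overlapped, and 42.6% to 82.4% and 51.5% to 78.1% in males. By position, the 36 of 72 Igkv members closest to the J segments held 25.9% to 45.2% of Igkv reads in young and 46.9% to 82.1% in old vehicle females, without overlap. In males the ranges were 45.8% to 52.0% and 35.1% to 53.7%, and they overlapped. For Ighv the ranges overlapped in both sexes.

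Of the segments known from B-1 cells, Ighv11-2 was seen in no young mouse and Igkv14-126 in few reads there. Ighv11-2 and Igkv14-126 are known to pair in antibodies against phosphatidylcholine. Ighv11-2 had 0 counts in the 9 young mice and 6, 33, 1 and 10 in old vehicle females, 0, 2, 0, 10 and 3 in HDM201 females, 0, 2, 0 and 1 in old vehicle males and 0, 1, 2, 9 and 5 in HDM201 males. Igkv14-126 had 0 to 2 counts in each young mouse and 16, 97, 0 and 66 in old vehicle females, 0, 17, 4, 22 and 34 in HDM201 females, 3, 2, 0 and 1 in old vehicle males and 1, 5, 4, 17 and 10 in HDM201 males. Both were highest in old vehicle female 2. In edgeR Igkv14-126 had a log2 fold change of -1.54 ± 0.871 (SE) with HDM201 in females, with an FDR of 0.324.

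Of the other segments listed for natural antibodies, Ighv12-3 had 20 counts, all in old mice, with 11 in old vehicle females. Igkv4-91 had 345, with 91 in old vehicle female 4, 70 in old vehicle male 4 and 47 in old HDM201 male 4. Ighv7-1, with 14 counts, and Igkv7-33, with 2, were below the threshold for members.

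The heavy constant regions show the antibody classes beside the V segments. Ighm, the constant region of IgM, held 76.3% to 91.3% of heavy constant reads in old vehicle females and 51.2% to 80.6% in old vehicle males. In old HDM201 male 1 it held 16.9%, and the IgG genes Ighg1, Ighg2b, Ighg2c and Ighg3 held 76.3%, with 5747 reads of Ighg2b and 1381 of Ighg2c among 9454. The other 4 HDM201 males had 6.51% to 29.4% IgG. Old HDM201 male 1 thus had the highest V segment level, the highest CPM of Igkv1-117 and Ighv8-8 and the highest IgG share of the 27 mice. Its 11 T cell genes summed to 40.6 CPM, against 8.44 to 17 CPM in the other HDM201 males, and their part in its V segment level was not tested.

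Ighd, the constant region of IgD on naive B cells, held 2.31% to 9.96% of heavy constant reads in young mice. It held 0.713% to 1.28% in old vehicle females and 1.55% to 2.50% in old vehicle males. Old females were below young females without overlap, and old males overlapped young males. HDM201 males had 0.447% to 0.994%, all below the vehicle males, and HDM201 females 0.790% to 2.27%, overlapping vehicle. These are shares: the level of Ighd itself was 2.65 ± 1.56 (SD, n = 5) CPM in HDM201 males and 2.52 ± 0.705 (SD, n = 4) CPM in vehicle males. With age in males the level rose by 1.36 ± 0.321 (SE) on the log2 scale, with an edgeR FDR of 0.0492. Igha, the constant region of IgA, held 2.77% to 38.3% in young and 2.33% to 12.6% in old vehicle mice.

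Old females and old males differed in the ratio of variable to constant kappa reads. There were 77.8 to 114 Igkv reads per 100 Igkc reads in old vehicle females and 84.2 to 120 in HDM201 females, but 52.1 to 59.7 in old vehicle males and 54.6 to 73.9 in HDM201 males. The 9 old females were all above the 9 old males. In young mice, with 14 to 80 Igkc reads each, the ratio was 46.8 to 124 in females and 55.8 to 107 in males and the sexes overlapped. Neither treatment group differed from vehicle in this ratio without overlap.

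**Figure D5:**
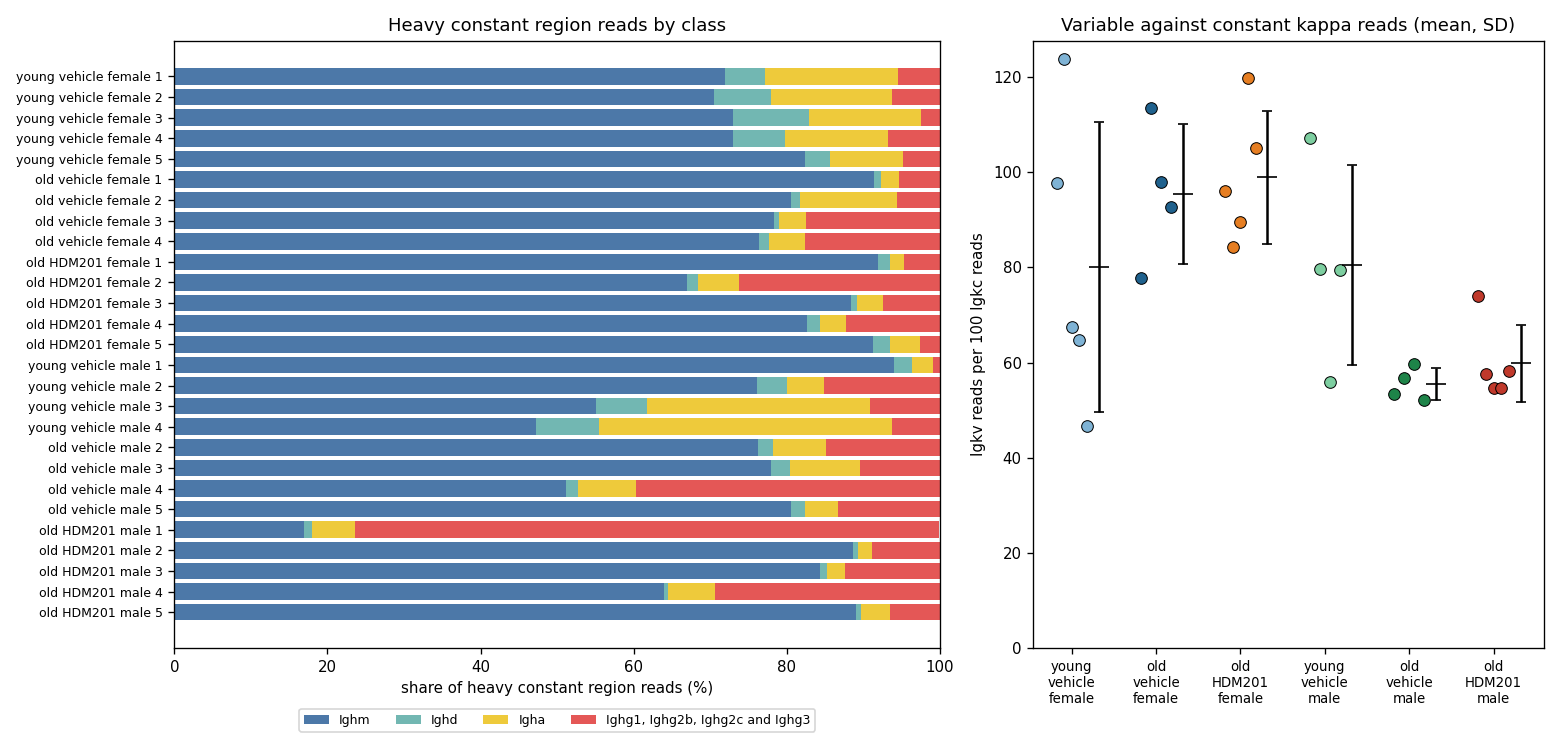
Left, share in percent of heavy constant region reads in each mouse on Ighm, Ighd, Igha and the IgG genes; right, Igkv reads per 100 Igkc reads, with points for mice and bars for the group mean ± SD. On the left old HDM201 male 1 has 76.3% IgG, and on the right the 9 old females (77.8 to 120) lie above the 9 old males (52.1 to 73.9).

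A chemokine of B cell follicles was high in a few old mice. Cxcl13, which attracts B cells, was the one gene tested of the 6 listed for lymph node or follicle stroma, with 5 found in the table. It was at 0.635, 17.3, 1.77 and 9.09 CPM in old vehicle females and 0.356 to 1.15 CPM in HDM201 females. Its log2 fold change with HDM201 in females was -3.22 ± 0.757 (SE) with an edgeR FDR of 0.0345, and with age in females 2.83 ± 0.71 (SE) with an edgeR FDR of 0.00945. Old HDM201 male 5 had 31.7 CPM, against 0.215 to 2.19 CPM in the other HDM201 males, and its summed V segment CPM of 80.3 was the lowest of its group. The mice with most Cxcl13 and the mice with most V reads were not the same in males or in HDM201 females. Among old vehicle females, female 2 had the most of both. A link between Cxcl13 and V segment level was not tested. Of 6 germinal centre genes, 2 were tested in each comparison. S1pr2, with age in females, was the only one called, where 16.8% of all genes were called higher. With 2 genes this count says little.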

How the data were processed

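RNA was measured by poly(A) RNA-seq of liver from 29 mice. According to the study's methods and processing notes, the authors aligned reads with STAR to mm10 and deposited HTSeq gene counts, not normalized, for 27 mice and Cufflinks FPKM for 29. Annotation, strand setting and versions are not given in the sources used here. Total counts were 16485900 to 23570458 per mouse.

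Counts were tested over all genes with edgeR 4.0.16 in R 4.3.3 (filterByExpr with minimum count 10 and minimum total 15, TMM, quasi-likelihood test, Benjamini-Hochberg FDR under 0.05) within the groups compared, and the sex interactions over 4 groups. The steps were tested on simulated data. V segment sums, evenness, segments in 27 reads and Morisita indices were computed in Python 3.11.15 and carry no test. DESeq2 1.42.0, filters, scaling and leaving out mice were alternatives. Members and gene lists were chosen with earlier results of these data known. Named members are the 5 (Iglv: 3) with most counts per locus, up to 5 called members with the largest rise or fall, each mouse's leading segment, those of which a single mouse held over 50% and over 100 counts, those at the threshold, and natural antibody segments. Further members were named after their values were seen, where a count of few was given or groups did not overlap. Coordinates and sequences are from GENCODE M21 (GRCm38).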

Additional observations from a re-analysis of the deposited data

Results flagged for a closer look

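Of 107 groups of 4 or 5 mice examined for a mouse far from the rest of its group, 29 held one. Chance gives about 1 in 20, but 22 of the 29 are single segments, many of which were named because a single mouse held most of their counts, so that the number cannot be set against chance. Old HDM201 male 1 stood apart in summed V segment level (279.3 CPM), Igkv reads per 100 Igkc reads (73.92) and Ighv reads per 100 heavy constant reads (19.12). It also stood apart in the CPM of Igkv1-117 (92.33), Ighv8-8 (36.96), Igkv3-5 (22.16), Igkv6-25 (21.32), Ighv1-61 (16.64), Ighv1-76 (11.44) and Ighv1-15 (10.1).

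Old vehicle male 5 stood apart in segments expected in 27 V reads (12.81), evenness (0.6345), the chance that 2 V reads share a segment (17.11%), and the CPM of Igkv4-63 (16.6) and Ighv1-53 (5.25). Old vehicle male 2 stood apart in Igkv16-104 (9.572 CPM) and old HDM201 male 5 in Igkv4-55 (5.41 CPM) and Igkv4-57-1 (4.361 CPM).

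Among old vehicle females, female 1 stood apart in Ighv1-53 (7.939 CPM), female 2 in Igkv12-89 (7.071 CPM), Iglv1 (3.401 CPM) and Ighv1-76 (2.998 CPM), and female 3 in Igkv1-117 (11.39 CPM) and Ighv8-8 (1.438 CPM). Among HDM201 females, female 3 stood apart in Igkv4-57-1 (19.15 CPM) and Ighv13-2 (11.06 CPM), female 4 in the lambda share of light chain V reads (16.36%), and female 5 in Ighv2-9-1 (4.95 CPM) and Ighv1-61 (1.178 CPM).

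The mice with FPKM alone had summed V segment FPKM of 476.6 (young vehicle male 5) and 1181 (old vehicle male 1). In the former Igkv5-48 led with 6.03% of it, and in the latter Igkv3-2 with 22.2%. Among B cell genes, the effect of HDM201 on Cd37 differed between the sexes by 1.43 (log2, male minus female, edgeR FDR 0.0462), and the effect of age on Blnk by 3.02 (edgeR FDR 0.00139).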

How the results depend on the processing

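Summed V segment level kept its direction in all 4 comparisons under every alternative run. Leaving out 1 mouse at a time gave log2 differences of 3.92 to 4.12 (age, females), 3.36 to 4.03 (age, males), -1.02 to -0.44 (HDM201, females) and 1.22 to 1.71 (HDM201, males). Iglv alone gave 3.09 and 2.98 with age in females and males. The difference in segments seen depended on how they were counted. It was -2.24 (females) and -1.14 (males) with age at 27 V reads, but 63.9 and 64.3 when all segments with 1 count were counted and 65.4 and 54.5 with 3 counts, and with HDM201 in males 22.6 and 24.4. Leaving out 1 mouse gave -2.80 to -1.55, -1.90 to 0.635, -1.77 to -0.43 and -2.62 to 0.599 segments at 27 V reads. For evenness it gave -0.158 to -0.128, -0.163 to -0.0796, -0.0401 to 0.0021 (above 0 without old HDM201 female 3) and -0.110 to -0.0054. The share of the 10 most abundant segments was 3.89 points lower (-3.89) in old than in young males, the opposite direction to evenness.

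Counts of called members moved with the filter and the tool. With age in females they were 81 without a filter, 35 with all 6 groups in a fit and 58 by DESeq2, and in males 18, 15 and 21, with 2 at an FDR under 0.01. With HDM201 they were 5 (no filter) in females and 1 (no filter) and 7 (DESeq2) in males, and 4 and 2 for the difference between the sexes. Leaving out 1 mouse gave 7 to 9, 3 to 6, 0 and 0 calls, 0 to 2 for sex by treatment and 0 for sex by age. With the replicate number as a block, calls were 6 and 0 with age in females and males. The numbers did not pair the mice, since correlations of deviations ran from -0.228 to 0.228 and 0 of 8, 0 of 6, 3 of 8 and 2 of 8 mice correlated best with their own number. Young livers, with 27 to 115 V reads, limit what can be said of single segments there.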
